A study of Mus musculus with 6 samples.

Results

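The most abundant circular RNAs of the mouse ovary were described: 115 circRNAs whose mean over 6 libraries was 1000 RPM or more, out of 57233 listed. RPM is the number of reads of a circRNA per 1000000 circRNA reads of its library, so it is a level relative to the other circRNAs and not an absolute amount. Fewer molecules of one circRNA, more of the others, or a change in the cells that make up the ovary cannot be told apart on this scale. The members were chosen on the mean of all 6 libraries, and their abundance and rank are therefore descriptions. The threshold does not use the contrast between the groups. A further 2 circRNAs above 1000 RPM, ranked 59 and 90, belong to runs of neighbouring IDs that the rule leaves out, and these runs were set aside with their difference between the groups known, so counts of members that differ are without them. Ranks are counted over all listed circRNAs, so the members run from rank 1 to rank 117. The table gives each circRNA a number and no gene or position, so the circRNAs are called by their rank, and neither host genes, sequences nor marker genes of the ovary could be looked at.

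A circRNA arises by back-splicing, in which a splice donor is joined to an acceptor that lies upstream of it, and the closed ring lacks the free ends at which exonucleases start. Rings are long-lived as a result and can accumulate to high levels even where the linear RNA of the same gene turns over fast. RNase R, an exonuclease that degrades linear RNA, was used to enrich them here. Some abundant circRNAs bind microRNAs, and competition for microRNAs in hypoxic injury of the ovary is the subject that the labels name.

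Both groups were female mice of the C57BL/6J inbred strain, called C57BL/6 in the design text, aged 8 weeks by that text and 6 to 8 weeks by the sample descriptions, and all were given levonorgestrel and ethinylestradiol by gavage for synchronization. The doses, 0.1 and 0.02 mg/kg, are stated for the hypoxia group alone. Normal pressure mice were kept for 15 days in Lanzhou (83.56 kPa, oxygen 17.8 kPa, 1588 m in the design text and 1500 m in the titles), and hypobaric hypoxia mice for 15 days in a chamber (43.12 kPa, oxygen 8.1 kPa). The chamber altitude is 6500 m in the titles and 5000 m in the descriptions. Each group had 15 mice and 3 libraries, all marked as batch 1, and nothing says whether a library is 1 mouse or a pool, so p-values measure the spread between these libraries, which may be technical.

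Depth, recovered from the step between low values, was 151364 to 369055 circRNA reads in the normal pressure libraries and 487143 to 526621 in the hypoxia libraries. The shallowest library was normal pressure replicate 2. Even there the members rested on 121 reads or more, with a median of 263, and in the other libraries the median was 599 to 879 reads. All 115 members were above 0 in all 6 libraries and all were tested.

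The level fell steeply over the first ranks and slowly after them. The circRNA at rank 1 had 17282, 14389 and 12543 RPM in normal pressure replicates 1, 2 and 3 and 11762, 12791 and 10828 RPM in hypobaric hypoxia replicates 1, 2 and 3. It was the highest of all circRNAs in 4 libraries, the 3 of normal pressure and hypoxia replicate 2. The circRNA at rank 2 took first place in the other 2 libraries. Its RPM was 9864, 10617 and 10844 in normal pressure and 12381, 10659 and 11680 in hypobaric hypoxia. Rank 3 held place 3 in every library, with 8998, 9725 and 10055 RPM in normal pressure and 10542, 9728 and 10445 RPM in hypoxia. The groups overlapped in all 3.

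The mean RPM over all libraries was 13266 at rank 1 and 5052 at rank 10, and 10 members had 5000 RPM or more. In all, 42 members had 2000 RPM or more and 73 lay between 1000 and 2000 RPM. The median member had 1623 RPM. The mean at rank 1 was 13.2 times that at rank 117.

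**Figure D1:**
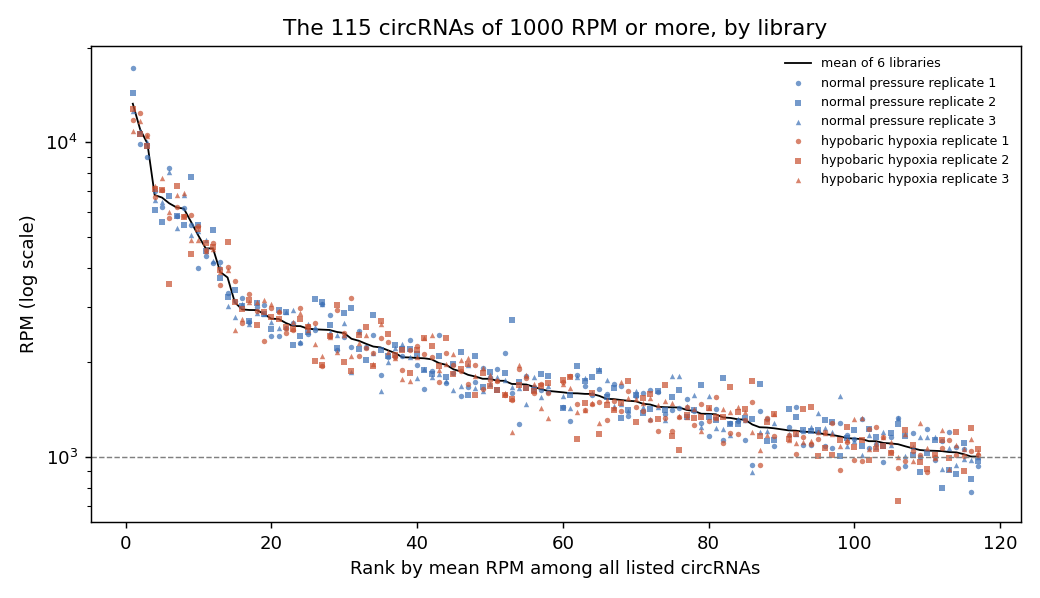
RPM of each of the 115 members (vertical axis, log scale) against its rank by mean RPM (horizontal axis), with 1 point per library, blue for normal pressure and orange for hypobaric hypoxia, and a black line for the mean of 6 libraries. The level drops from 13266 to 5052 RPM over the first 10 ranks and then flattens towards the dashed line at 1000 RPM.

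Near the threshold the choice of members was a matter of small differences. The last members inside it, ranks 115, 116 and 117, had means of 1021, 1004 and 1003 RPM, and the first circRNAs outside it, ranks 118, 119 and 120, had 989, 988 and 981 RPM. Of the 115 members, 96 were at 1000 RPM or more in each of the 6 libraries. The other 19 fell below it in at least 1 library, down to 727 RPM. Rank 116 was one of these, with 772, 852 and 978 RPM in normal pressure and 1048, 1236 and 1137 RPM in hypobaric hypoxia.

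Together the members held between 26.2% and 27.1% of the circRNA reads of each library. The summed share averaged 26.6% ± 0.438 over normal pressure libraries and 26.3% ± 0.142 over hypoxia libraries (SD, n = 3), a difference of -0.289 percentage points. The shallowest library had the highest share, 27.1%, against 26.5% and 26.3% in the other normal pressure libraries, and without it the difference was -0.0438. No circRNA is listed with 1 read in any library, a floor that lies at a higher RPM in a shallower library. With all libraries thinned to equal depth the shares were 27.1% ± 0.101 in normal pressure and 27.3% ± 0.119 in hypoxia (SD, n = 3), and the difference turned to 0.215.

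Within the members, the share of the 10 most abundant was 7.79% ± 0.107 in normal pressure and 7.62% ± 0.218 in hypoxia, and the groups overlapped. The next 40 held 10.01% ± 0.290 and 10.2% ± 0.0676, again with overlap. At equal depth the next 40 held 10.2% ± 0.133 and 10.6% ± 0.100 (SD, n = 3), the groups no longer overlapped, and the difference was 0.391 percentage points in place of 0.201. The remaining 65 held 8.82% ± 0.171 and 8.498% ± 0.124 (SD, n = 3 in each case). In that last tier the 3 hypoxia libraries, at 8.36%, 8.55% and 8.59%, lay below the 3 normal pressure libraries, at 8.67%, 9.005% and 8.78%. At equal depth its difference was -0.156 in place of -0.32 percentage points, and the groups overlapped. No test is given for these sums, because the members were chosen with earlier results known.

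**Figure D2:**
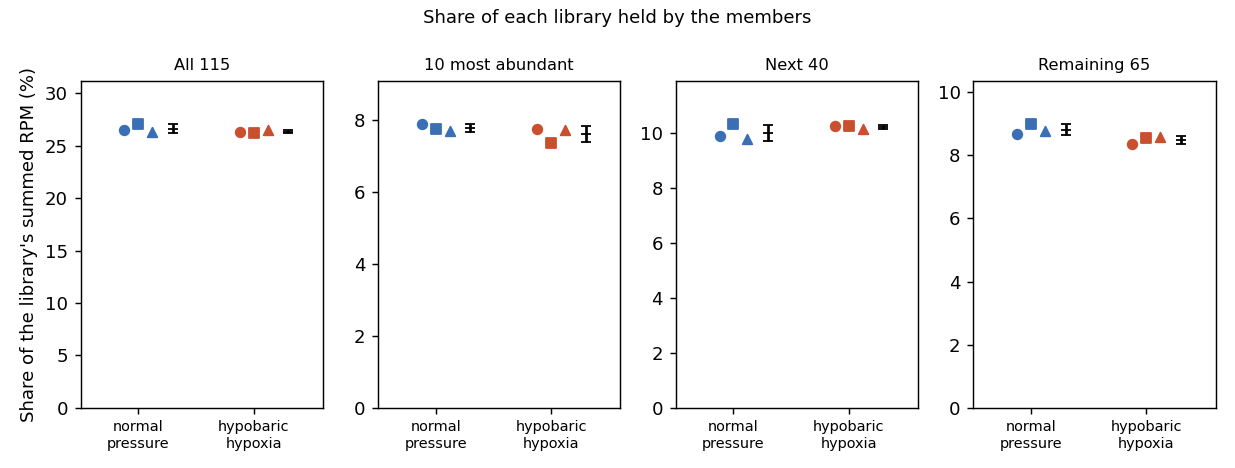
Share of the summed RPM of each library (vertical axes, percent, from 0) held by all 115 members, the 10 most abundant, the next 40 and the remaining 65, with 1 point per library and the mean ± SD of 3 libraries in black. All 6 libraries sit between 26.2% and 27.1% for the whole set.

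The order of the members was largely shared by the libraries. Between 105 and 110 of the 115 were among the 115 most abundant circRNAs of any one library, and 93 were so in all 6. The lowest place that a member took in a library was 174, in hypobaric hypoxia replicate 2. Across the 115 members the Spearman correlation between libraries was 0.933 to 0.940 within normal pressure, 0.939 to 0.944 within hypobaric hypoxia and 0.862 to 0.928 between libraries of different groups. Each within-group value was thus above each between-group value. After thinning to equal depth, in a single random draw, they were 0.927 to 0.937, 0.925 to 0.932 and 0.852 to 0.924, in that order. The lowest within-group value, 0.925, then lay barely above the highest between-group value, 0.924. Whether that order holds in other draws was not tested. These correlations describe members of the same libraries, which share depth and scaling, and the cut at 1000 RPM narrows the range of levels they span.

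The same 10 circRNAs filled the first 10 places by the mean of normal pressure and by the mean of hypobaric hypoxia, in a different order below place 3. Rank 6 moved most among them, from place 4 to place 9, and rank 5 moved from place 8 to place 4. Over all members the median shift between the group orders was 7 places and the largest was 44. Levels lie close together in the lower ranks, so a small change in RPM moves a member by many places there. A shift of over 20 places was seen in 11 members, 8 of them to a lower place in hypoxia and 3 to a higher one. Rank 86 moved from place 108 to place 64, and rank 106 from place 84 to place 115, the last.

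Replicates of a group differed by a median of 8.04% in normal pressure and 7.67% in hypobaric hypoxia, taken as the SD over the mean of 3 libraries for each member (its coefficient of variation). The coefficient of variation expected from the number of reads alone, counted as independent, had a median over the members of 4.87% and 3.52%. The variance between libraries was a median of 2.73 times the counting variance in normal pressure and 5.43 times in hypobaric hypoxia. The mean of this ratio over the members was higher, at 6.47 and 10.7. In scarcer circRNAs above 0 in all 6 libraries, 500 to 1000 RPM, the median ratio was 2.32 and 2.26 and the mean 3.87 and 3.57. At 200 to 500 RPM the median was 1.98 and 2.15 and the mean 3.33 and 3.29. Spread beyond counting was therefore a larger multiple of counting error in the members, while the coefficient of variation itself was smaller, at 8.04% and 7.67% against 11.3% and 8.08% at 500 to 1000 RPM and 15.8% and 11.9% at 200 to 500 RPM. No molecular identifiers mark the reads, which are thus not independent molecules, and the counting figures cover counting error only.

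In 58 members the coefficient of variation was under 10% in both groups, and in 108 it was under 20% in both. The most even member was rank 17, with 2687, 2702 and 2650 RPM in normal pressure and 3294, 3148 and 3116 RPM in hypobaric hypoxia. Its groups did not overlap, and its larger coefficient of variation was 2.97%. Rank 117 followed at 2.98%, with 940, 971 and 997 RPM in normal pressure and 1018, 1058 and 1037 RPM in hypoxia. Rank 63, at 3.18%, had 1687, 1751 and 1780 RPM in normal pressure and 1411, 1489 and 1408 RPM in hypoxia, again without overlap.

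The remaining 7 members reached 20% or more in at least 1 group, and in the 3 widest a single library stood out. Rank 53 had 2729 RPM in normal pressure replicate 2 against 1600 and 1664 RPM in replicates 1 and 3, a coefficient of variation of 31.7%, and 1515, 1534 and 1205 RPM in hypoxia. Rank 31 had 3206 RPM in hypobaric hypoxia replicate 1 against 1876 and 2092 RPM in replicates 2 and 3 (29.8%), and 2243, 2973 and 1867 RPM in normal pressure. Rank 6 had 3560 RPM in hypobaric hypoxia replicate 2 against 5761 and 6017 RPM in replicates 1 and 3 (26.4%). A different library stood out each time. Over all members, the median distance of a library from the mean of the other libraries of its group was 0.09 to 0.12 on the log2 scale, so no library was far from its group throughout.

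**Figure D3:**
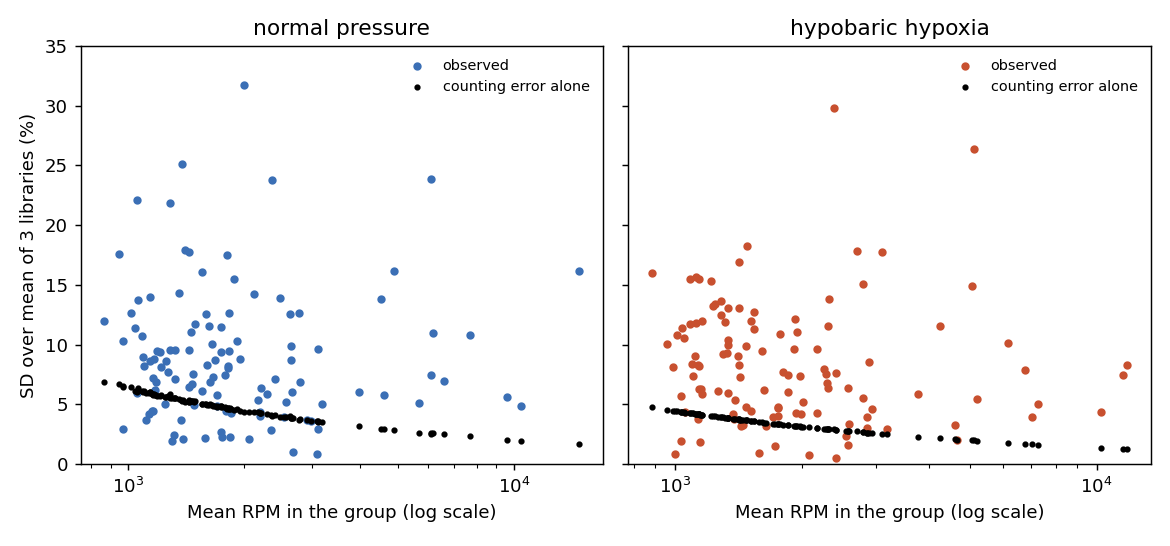
Coefficient of variation over 3 libraries (vertical axis, percent) against mean RPM in the group (horizontal axis, log scale) for the 115 members in normal pressure and in hypobaric hypoxia; black points give the value expected from the number of reads alone. Most members lie above their counting value, and 7 reach 20% or more in at least 1 group.

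Most of these levels were close between the groups. The log2 fold change, hypoxia over normal pressure on log2(RPM + 4.765), had a median of -0.01 over the members and an interquartile range of -0.14 to 0.12, with 57 members above 0 and 58 below. Over all 15737 circRNAs tested the median was 0.18, a value that turned with the choice of circRNAs: it was -0.07 over those above 0 in all 6 libraries and -0.03 over those with a mean of 100 RPM or more. With a smaller or larger pseudocount it was 0.31 or 0.06, while the median of the members stayed at -0.01. The members spanned -0.62 to 0.50, and 2 of them lay beyond 1.5-fold in either direction. The 95% interval from limma lay wholly within 1.5-fold for 101 members and reached past it for 14, in which a larger difference is not excluded. For most members this interval rests on an error borrowed from other circRNAs at the same level, and 58 members had a spread of their own above it. A larger difference is thus not excluded for the 101 either.

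Limma called 10 of the 115 members at a Benjamini-Hochberg adjusted p under 0.05, which is 8.70%, against 0.407% of all circRNAs tested. Of these, 5 were higher in hypobaric hypoxia (0.165% of all tested were called higher) and 5 were lower (0.241%). The share called was higher in more abundant circRNAs below the threshold too. It was 1.498% of the circRNAs between 100 and 200 RPM that were above 0 in all 6 libraries, 3.59% between 200 and 500 RPM and 6.92% between 500 and 1000 RPM. In a fit of only circRNAs with a mean of 100 RPM or more, 5.22% of the members and 3.11% of all were called. The rises and falls were modest: the 5 rises had log2 fold changes of 0.26 to 0.50, and the 5 falls had -0.62 to -0.43. The 5 that rose made up 1.79% ± 0.0484 of normal pressure reads and 2.24% ± 0.123 of hypoxia reads, and the 5 that fell 0.949% ± 0.0369 and 0.659% ± 0.0361 (SD, n = 3), as a description of circRNAs selected on these libraries.

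**Figure D4:**
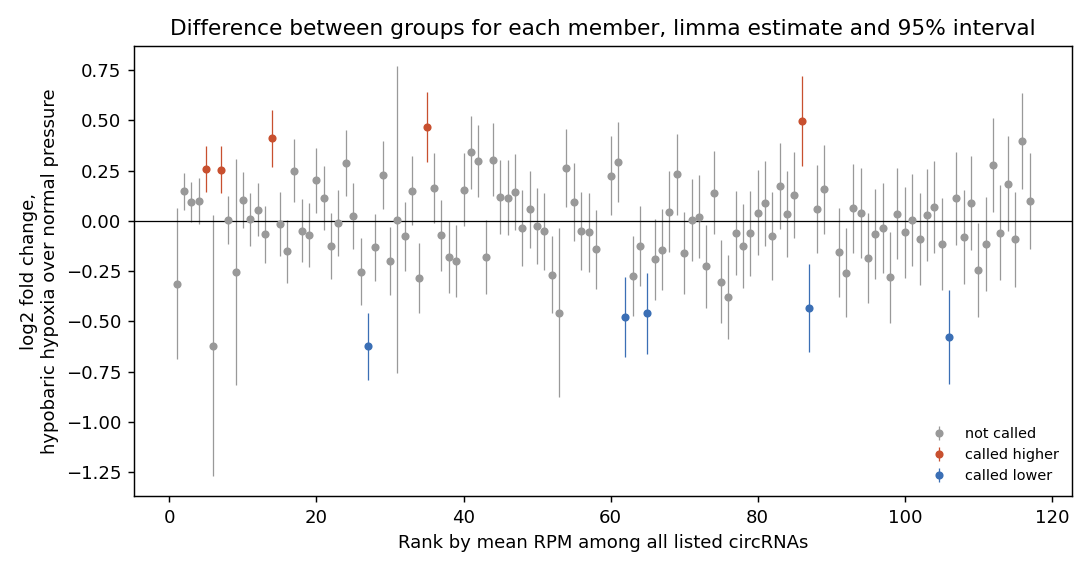
Log2 fold change of hypobaric hypoxia over normal pressure (vertical axis) for each member by its rank (horizontal axis), with the 95% interval from limma; orange marks the 5 called higher, blue the 5 called lower and grey the 105 not called. The called members lie between -0.62 and 0.50. The widest intervals belong to ranks 1, 6, 9, 31 and 53, whose variance between replicates was 7.4 to 18.9 times the value pooled at their level.

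Among the falls the clearest was that of novel_circ_052772, at rank 27. Its RPM was 3065, 3112 and 3067 in normal pressure and 1940, 1960 and 2096 in hypobaric hypoxia. The groups were far apart and each was tight. Its mean was 3081 ± 26.3 RPM in normal pressure and 1999 ± 84.8 RPM in hypoxia (SD, n = 3), and limma gave a difference of -0.62 ± 0.09 on the log2 scale (estimate ± standard error, adjusted p = 1.76e-09). Its call held in 17 of 18 alternative settings, the exception being limma with neither an intensity trend nor robust variances (adjusted p = 0.726), where no circRNA of the whole table was called and 1408 had an unadjusted p under 0.05.

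The other fall with an ID given here was novel_circ_033579, at rank 106. It had 1331, 1275 and 1330 RPM in normal pressure and 926, 727 and 1002 RPM in hypobaric hypoxia, with hypoxia replicate 2 the lowest. On the log2 scale the limma difference was -0.58 ± 0.12 (estimate ± standard error, adjusted p = 0.00104). Without normal pressure replicate 1 or 3 or hypoxia replicate 2 the call was lost, and 5 of 18 alternatives in all ended it.

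Ranks 62, 65 and 87 fell as well. Rank 62 had 1822, 1942 and 1794 RPM in normal pressure and 1473, 1139 and 1394 RPM in hypoxia, a log2 difference of -0.48 (adjusted p = 0.00256, limma). Rank 65 had 1641, 1883 and 1910 RPM against 1491, 1185 and 1279 RPM, a log2 difference of -0.46 (adjusted p = 0.0052, limma). Neither had overlapping groups. Both calls were lost without normal pressure replicate 1 or 3 or hypoxia replicate 2, and that of rank 65 also without hypoxia replicate 3. In all, 6 of 18 alternatives ended the call of rank 62 and 8 that of rank 65. For both, centring the libraries on their median was among them, and for rank 65 equal depth too. Rank 87 had 1397, 1704 and 1200 RPM against 942, 1164 and 1055 RPM, a log2 difference of -0.43 (adjusted p = 0.035, limma). Its groups came close without overlapping, and 16 of 18 alternatives, among them each of the 6 in which a library was left out, ended its call.

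Among the rises novel_circ_000363, at rank 14, had the smallest p. It was at 3331, 3217 and 3016 RPM in normal pressure and at 4027, 4819 and 3919 RPM in hypobaric hypoxia, where replicate 2 was the highest. Its mean was 3188 ± 160 RPM in normal pressure and 4255 ± 492 RPM in hypoxia (SD, n = 3), and the limma difference was 0.41 ± 0.07 on the log2 scale (estimate ± standard error, adjusted p = 3.92e-05). Without normal pressure replicate 1 or 3 or hypoxia replicate 2 the call was lost, and 5 of 18 alternatives in all ended it.

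The largest rise by log2 fold change was that of novel_circ_014535, at rank 86. Its RPM was 942, 1321 and 897 in normal pressure and 1501, 1747 and 1205 in hypobaric hypoxia. It was the only called member whose groups overlapped, since normal pressure replicate 2 was above hypoxia replicate 3. The limma difference was 0.50 ± 0.11 on the log2 scale (estimate ± standard error, adjusted p = 0.00817), and 10 of 18 alternatives ended the call, among them leaving out normal pressure replicate 1 or 3 or hypoxia replicate 1 or 2.

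Ranks 5, 7 and 35 rose too. Rank 5 had 6232, 5576 and 6454 RPM in normal pressure and 7041, 7070 and 7694 RPM in hypobaric hypoxia, a log2 difference of 0.26 (adjusted p = 0.00596, limma). Rank 7 had 5829, 5827 and 5324 RPM against 6218, 7282 and 6793 RPM, also a log2 difference of 0.26 (adjusted p = 0.00873, limma). Rank 35 had 1824, 2193 and 1618 RPM against 2396, 2712 and 2640 RPM, a log2 difference of 0.47 (adjusted p = 0.000229, limma). In all 3 every hypoxia library lay above every normal pressure library. The calls of ranks 5, 7 and 35 were lost without normal pressure replicate 1 or 3, and those of ranks 5 and 7 also without hypoxia replicate 3. Rank 5 lost its call without normal pressure replicate 2 as well, and rank 7 without hypoxia replicate 2. Of 18 alternatives, 9 ended the call of rank 5, 11 that of rank 7 and 4 that of rank 35. Rank 7 lost it with quantile normalization and at equal depth too.

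**Figure D5:**
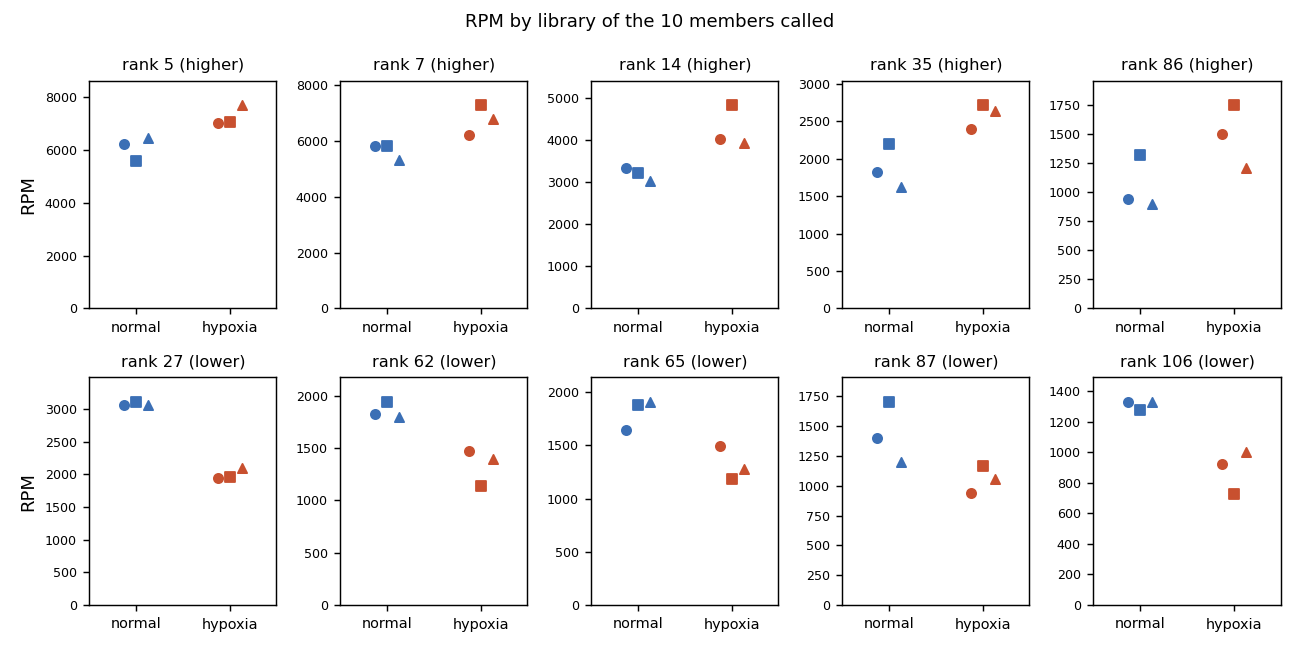
RPM in each library (vertical axes, from 0) of the 10 members called, 5 higher in the upper row and 5 lower in the lower row; blue points are normal pressure, orange points hypobaric hypoxia, and circle, square and triangle mark replicates 1, 2 and 3. Rank 27 has the tightest groups, and rank 86 is the one whose groups overlap.

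For most members the limma error is borrowed from other circRNAs at the same level (1891 prior degrees of freedom against 4 from the libraries), and 9 of the 10 called had a spread of their own above the pooled value. Without normal pressure replicate 1 or replicate 3 the 10 calls became 1 in each case (0.87% of members against 0.0425% and 0.0289% of all tested). Without hypobaric hypoxia replicate 2 or 3 they became 5 and 6 (4.35% and 5.22% of members against 0.158% and 0.202%). With the libraries aligned by the median of the circRNAs seen in all 6, 11 members were called higher and 2 lower, so the even split of 5 and 5 holds for the RPM scale as deposited.

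Groups did not overlap in 34 of the 115 members, or 29.6%, where 14.0% of all circRNAs tested did not overlap. Of these 34, 16 were higher in hypobaric hypoxia (9.12% of all tested) and 18 were lower (4.85%). The share was 27.7% between 500 and 1000 RPM, close to that of the members, and 16.9% between 100 and 200 RPM. An unadjusted limma p under 0.05 was reached by 37 members, or 32.2%, against 8.60% of all tested. The 25 members that were not called although their groups did not overlap, 12 higher and 13 lower, differed by 0.10 to 0.62 on the log2 scale.

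The largest differences that were not called belonged to members with wide replicates or near the threshold. Rank 6 had 8264, 6732 and 8069 RPM in normal pressure and 5761, 3560 and 6017 RPM in hypobaric hypoxia. Each hypoxia library was below each normal pressure library, and the log2 fold change was -0.62 with a 95% interval of -1.27 to 0.03 (limma adjusted p = 0.598). Without hypoxia replicate 2, the lowest library, it was -0.38 and called (limma adjusted p = 7.68e-05), and 3 of 18 alternatives in all called it. Rank 53 had a log2 difference of -0.46 (adjusted p = 0.556, limma), with normal pressure replicate 2 far above the rest. Without that library it was -0.21 and not called (limma adjusted p = 0.567), and 8 of 18 alternatives called it. Rank 116 had a log2 difference of 0.40 (adjusted p = 0.174, limma), with every hypoxia library above every normal pressure library.

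The remaining members of the first 10 did not pass the test. Rank 1 differed by -0.31 (95% interval -0.69 to 0.06, limma adjusted p = 0.673), with hypoxia replicate 2 above normal pressure replicate 3, and 5 of 18 alternatives called it. Rank 2 differed by 0.15 (0.05 to 0.24, adjusted p = 0.237 in limma) and was called after median centring, after quantile normalization and with voom on recovered reads. Quantile normalization gives each library the same set of values. Ranks 1 and 2 then differed by -0.211 and 0.211 and rank 3 by 0, so those 2 calls reflect exchanged places alone. With voom the adjusted p of rank 2 was 6.29e-59, too small to take at face value with 3 libraries per group. Rank 4 had 7023, 6104 and 6576 RPM in normal pressure and 6718, 7123 and 7248 RPM in hypoxia. Rank 8 had 6177, 5464 and 6815 RPM against 5831, 5775 and 6887 RPM, with means as good as equal (log2 fold change 0.00, 95% interval -0.12 to 0.12). Rank 9 had 5448, 7769 and 5091 RPM against 5889, 4405 and 4906 RPM, with normal pressure replicate 2 the highest, and a log2 fold change of -0.25 (95% interval -0.82 to 0.31) that was -0.066 without that library. Rank 10 had 3991, 5457 and 5235 RPM against 5428, 5311 and 4888 RPM.

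No 2 members had ID numbers that followed each other directly. In 7 cases, with 13 members, the numbers lay at most 3 apart, a limit chosen after the values were seen. Ranks 6 and 106, 3 apart, differed by -0.62 and -0.58 on the log2 scale, and in both hypobaric hypoxia replicate 2 was the lowest of all libraries. Ranks 62 and 76, also 3 apart, differed by -0.48 and -0.38. Rank 76 had 1430, 1638 and 1805 RPM in normal pressure and 1338, 1056 and 1355 RPM in hypoxia, and here too hypoxia replicate 2 was the lowest in both. Of these 4, ranks 106 and 62 were called. In the other 5 cases the differences were between -0.20 and 0.26, and ranks 7 and 55 lay at 0.26 and 0.10. The numbers carry no position, so whether such circRNAs lie near each other in the genome was not tested.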

How the data were processed

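The table holds RPM values that the authors deposited, scaled to about 1000000 per library over the listed circRNAs. BWA, Bowtie2 and GRCm38 are named, without roles, per the submitters' processing notes; which caller found the circRNAs, and with which filters, is not given in the sources used here. All 6 value columns were used. With the smallest value taken as 2 reads, 100% of the values above 0 lay within 0.05 of a whole number of reads, and these reads were used for depth and thinning. The labels' protocols name TRIzol extraction, ribosomal RNA removal and RNase R.

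From the RPM values, log2(RPM + 4.765) was fitted with limma 3.58.1 in R 4.3.3 (group as the only term, intensity trend, robust variances, two-sided) for circRNAs above 0 in at least 3 libraries; as pseudocount served the smallest RPM above 0 of a library, as a median of 6 libraries. P-values were adjusted over all 15737 tested. The fit was run on simulated reads with 200 circRNAs changed by 1.5-fold or more, with the same spread beyond counting for all circRNAs. Only the direction and size of the estimates were checked. Smaller changes and circRNAs with wide replicates are not covered by it. For equal depth, reads were thinned at random to 151364 per library in 11 draws. The correlations between libraries at equal depth used a single further draw. Libraries of a group differed beyond the counting noise of independent reads (chi-square over its degrees of freedom 2.89 to 4.27), and each was kept as its own library. This cannot tell libraries of different mice from separate preparations of the same RNA.

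Described one by one were the 10 highest members, all called, the 3 widest, 3 most even and 3 largest differences not called, and those next to the threshold. The members and lists were chosen with earlier results of these data known. IDs are printed for 2 members that rose and 2 that fell (smallest p and largest fold change, or the next smallest p).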

Additional observations from a re-analysis of the deposited data

How the results depend on the processing

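The 10 calls were 8.7% of the members, against 0.407% of all tested. They became 6 (5.22%) with a smaller pseudocount (1.19 RPM), against 0.172% of all. They were also 6 when only circRNAs above 0 in all 6 libraries were tested (0.693% of all). Among the 1607 with a mean of 100 RPM or more they were 6 again, against 3.11% of all. With an intensity trend but no robust variances 1 was called (0.87% against 0.0635%). With neither, 0 were called, and 0 members and 1408 circRNAs of all had an unadjusted limma p under 0.05. Voom on recovered reads called 35 (30.4% against 0.68%). Leaving out 1 library gave 1 to 9, against 0.0289% to 0.384% of all called. Other settings gave 9 to 13, against 0.101% to 0.515% of all. The 9 at equal depth are those of the middle draw, and the 11 draws gave 6 to 10. Why was not tested. Called members kept their direction in each of the 18 alternatives fitted, but many of these could not have turned it. Filters, variance settings and the replicate block leave the fold change as it was. For the 9 without overlap between groups, a changed pseudocount or leaving out a library could not have turned it either. Only median centring, quantile normalization, voom and equal depth could have done so for these 9. A replicate block gave 12 calls, which include 9 of the 10; deviations of libraries with equal numbers were uncorrelated (-0.002, -0.024 and 0.003), and the numbers are not taken as pairs. Quantile normalization moved the median log2 fold change of all tested from 0.18 to 0.02 and that of the members from -0.01 to 0.00. The difference in summed share, -0.289 percentage points, was 0.215 at equal depth and between -0.465 and -0.0438 with 1 library left out. The members' mean share, 26.5%, was 27.2% at equal depth, 37.3% with a limit of 500 RPM (275 circRNAs), 16.3% with 2000 RPM (42) and 24.4% for the 96 at 1000 RPM in each library. ID pairs numbered 0, and 7 at a gap of at most 3. Among log2 fold changes near 0, that of rank 8 turned to -0.070 with voom and lay between -0.079 and 0.081 with 1 library left out, that of rank 10 between -0.039 and 0.187, and that of rank 31 (0.0050) between -0.226 and 0.184; the last was -0.014 after quantile normalization and -0.027 at equal depth. Voom, the fit above 100 RPM, and equal depth for shares and ranks were chosen after seeing the data. The planned edgeR, DESeq2 and TMM fits were not run, since reads are recovered only by taking the smallest value as 2. Depth limits normal pressure replicate 2 most, where 2 reads are 13.2 RPM.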
